A study of Mus musculus with 10 samples.

Results

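Molecular chaperones are proteins that help others fold, and 40 genes of this kind, or of the stress responses that control them, were examined in regulatory T (Treg) cells with and without LKB1. They were taken by gene symbol from a fixed list and placed in 4 groups by the compartment in which the proteins work: 10 cytosolic heat shock genes, 7 genes of the cytosolic chaperonin, 4 mitochondrial genes and 19 genes of the endoplasmic reticulum (ER). A probe set naming the gene alone represented 36 of the 40, out of 22180 genes measured: 7 cytosolic, 7 chaperonin, 4 mitochondrial and 18 ER genes. Hsp90ab1, Hsf1, Dnaja1 and Pdia4 were not analysed here. None of the 36 was among the dimmest 40% of genes. Where a gene had several probe sets, the 1 with the highest mean over the 10 arrays was used.

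The arrays held RNA of mouse Treg cells, CD4 T cells marked by Foxp3 and known for holding immune reactions in check, sorted without culture from mixed bone marrow chimeras. There were 5 arrays of LKB1-deficient cells, whose titles name a deletion of Stk11, the gene of the kinase LKB1, and 5 of wild-type (WT) cells. The sources used here do not give the strain, the age of the mice, what drove the deletion or how many animals stand behind a group, so that the p-values measure only sample-to-sample spread, part of which may be technical. Sample codes run on through replicates 1 to 3 of both genotypes (set 1) and then through replicates 4 and 5 of both (set 2), with no label saying what distinguishes the sets. Signals are deposited on a log2 scale, on which a difference of 1 is a doubling; the table has no detection calls and no true zero.

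Cytosolic chaperones of the HSP70 and HSP90 families bind unfolded stretches of new or damaged proteins, and the heat shock factor HSF1 raises several of them under stress. The chaperonin, a double ring of related subunits also called CCT or TRiC, encloses actin, tubulin and other proteins while they fold. Mitochondria have their own set, and proteins that enter the ER meet BiP, GRP94, lectin chaperones and disulfide isomerases. Load on the ER is sensed by IRE1, PERK and ATF6, which start the unfolded protein response and so raise many of the ER genes listed here. T cells draw on these systems when they grow and secrete.

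Short stretches of promoter sequence show what several ER members have in common beyond their function. They were read from RefSeq promoter windows of mouse build GRCm38.p6 (250 bases before to 50 after a start site), which were at hand for 30 of the 36 members. The ER stress element, through which ATF6 is known to act, was searched as CCAAT, any 9 bases and CCACG. On either strand, it was found for 7 of 16 ER members (43.8%), Hspa5, Hsp90b1, Calr, Canx, Pdia6, Dnajc3 and Creld2, for 0 of the 14 other members with a window, and for 37 of all 27025 genes with a window (0.137%). The stretches below come from chr2:34771840-34772089 (plus strand), chr10:86705445-86705694 (minus), chr8:84847055-84847114 (minus), chr11:50325780-50325839 (minus), chr12:17266470-17266529 (plus), chr14:118937806-118937865 (plus) and chr15:88819499-88819558 (plus). Capitals mark the paired CCAAT and CCACG letters, which read CGTGG and ATTGG where the element lies on the opposite strand, and Hsp90b1 has 1 element in each orientation.
Hspa5: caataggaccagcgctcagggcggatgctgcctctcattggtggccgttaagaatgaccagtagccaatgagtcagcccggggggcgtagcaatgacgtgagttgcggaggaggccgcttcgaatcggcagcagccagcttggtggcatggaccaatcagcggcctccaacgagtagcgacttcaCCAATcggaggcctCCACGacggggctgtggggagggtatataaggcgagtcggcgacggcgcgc
Hsp90b1: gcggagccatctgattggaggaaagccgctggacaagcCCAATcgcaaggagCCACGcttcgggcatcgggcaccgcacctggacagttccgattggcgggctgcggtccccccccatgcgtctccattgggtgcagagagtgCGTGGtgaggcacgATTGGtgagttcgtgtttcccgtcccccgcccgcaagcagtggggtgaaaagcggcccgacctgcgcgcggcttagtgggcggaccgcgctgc
Calr: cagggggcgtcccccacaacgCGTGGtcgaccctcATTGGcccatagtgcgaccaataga
Canx: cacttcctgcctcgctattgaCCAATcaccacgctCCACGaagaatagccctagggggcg
Pdia6: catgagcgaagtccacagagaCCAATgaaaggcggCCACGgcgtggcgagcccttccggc
Dnajc3: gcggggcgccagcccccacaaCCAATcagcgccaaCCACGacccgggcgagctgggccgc
Creld2: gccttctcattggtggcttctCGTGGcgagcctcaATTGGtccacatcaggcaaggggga

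A shorter form of the element, ATTGG, any 1 base and CCACG, was found for Herpud1 and Dnajb11, 2 of 16 ER members (12.5%), against 12 of all 27025 genes (0.0444%), and for no other member. The XBP1 site TGACGTGG was in the windows of 0 of the 30 members and of 193 genes (0.714%). The heat shock element bound by HSF1, searched as GAA, any 2 bases, TTC, any 2 bases and GAA on either strand, was in the windows of Hspd1, Hspe1 and Hsph1, 3 of 30 members (10.0%), against 179 genes (0.662%). Hspa1a, Hspa1b, Hspa4 and Dnajb1 had no match in that exact spelling, and Hspa8 and Hsp90aa1 had no window. Hspd1 and Hspe1 lie head to head on chromosome 1 with 216 bases between their start sites, so that the 1 cluster of elements counts for both. Hspd1 has a further annotated start site, beyond that of Hspe1. Shown are Herpud1 at chr8:94386352-94386411 (plus strand) with the short ER element in capitals, and the stretch before Hspe1 at chr1:55087998-55088147 (plus strand) with the overlapping heat shock elements in capitals. A match of letters is a description and no evidence that a factor binds in these cells. A missing match does not show that an element is absent.
Herpud1: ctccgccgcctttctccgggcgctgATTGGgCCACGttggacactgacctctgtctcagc
Hspe1: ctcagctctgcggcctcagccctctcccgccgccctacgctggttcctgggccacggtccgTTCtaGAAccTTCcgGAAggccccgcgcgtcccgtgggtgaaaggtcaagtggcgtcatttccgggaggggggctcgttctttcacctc

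The targeted gene, Stk11, was at 6.57, 6.01, 6.05, 6.71 and 6.78 on LKB1-deficient arrays 1 to 5, against 6.61, 6.69, 6.75, 6.95 and 6.92 on WT arrays 1 to 5. The groups overlapped, and the difference did not pass the test (-0.36, SE 0.16, limma adjusted p = 0.335). With LKB1-deficient arrays 1, 4 and 5 left out it was -0.75 (adjusted p = 0.0178) and with marker means as covariates -0.75 (0.0126), in a range of 0.0126 to 0.629 over its 22 alternatives. Those 3 arrays held the highest Stk11 signals among the LKB1-deficient ones, and removing them had to widen the gap. B cell, plasma cell and macrophage marker means were highest on the same arrays, so the fit with covariates is no separate check. Whether the probe set covers the deleted part is not known. Markers of other cell types stood apart on some LKB1-deficient arrays. The 16 of 16 measured macrophage, monocyte and dendritic markers averaged 8.9 and 9.0 on LKB1-deficient arrays 4 and 5 and 6.45 to 7.04 on arrays 1 to 3 of that genotype. WT arrays averaged 6.35 to 6.73, with summed levels of 103 to 144 on LKB1-deficient and 102 to 108 on WT arrays. The sums were 55.0 to 72.7 on LKB1-deficient against 54.4 to 58.1 on WT arrays for B cell markers (11 of 12 measured; LKB1-deficient arrays 1, 4 and 5 were the high ones) and 28.9 to 36.4 against 27.7 to 30.4 for plasma cell markers (5 of 7; high on 4 and 5). For NK markers (7 of 8) they were 35.6 to 42.2 on LKB1-deficient against 36.1 to 37.1 on WT arrays, for neutrophil markers (8 of 8) 31.7 to 43.1 against 32.9 to 37.0, for erythroid and platelet markers (2 of 6) 10.5 to 12.5 against 10.7 to 11.0, and for CD8 T markers (2 of 2) 13.8 to 14.4 against 12.8 to 13.4. LKB1-deficient array 1 had the highest NK, neutrophil and CD8 T sums. Of all these markers Cd8a rose and Nkg7 fell, and the others did not pass. The 9 of 10 measured genes of T cell and Treg identity summed to 93.8 to 99.6 on LKB1-deficient against 98.3 to 98.9 on WT arrays, with LKB1-deficient array 1 lowest, where Foxp3 was at 9.86 against 10.95 to 11.19 on WT arrays and 11.10 to 11.50 on the other LKB1-deficient ones.

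Across the 36 members, 1 fell, Hspa9, 1 rose, Ern1, and 34 did not pass limma's test at an adjusted p of 0.05. Over all genes 184 fell (0.83%) and 52 rose (0.234%), 236 in all (1.06%). At an unadjusted p under 0.05, 14 members were lower and 1 higher, where 8.8% and 5.19% of all genes were, and 13.7% of those above the dimmest 40% were lower. Arrays of the 2 genotypes did not overlap for 10 members with LKB1-deficient values lower and for 0 with them higher (3.71% and 0.996% of all genes). All 7 chaperonin and all 4 mitochondrial genes had negative estimates (medians of -0.33 and -0.35 on the log2 scale, LKB1-deficient minus WT). ER genes had 13 of 18 negative (median -0.14) and cytosolic heat shock genes 2 of 7 (median 0.04), where 49.2% of all genes and 58.2% of those above the dimmest 40% were negative and the median of all genes was 0.00342. Above the dimmest 40% the median was -0.041. With array medians subtracted, 4 of 7 cytosolic and 15 of 18 ER estimates were negative, and after a second quantile normalization 1 of 7 and 12 of 18, while the 7 chaperonin and 4 mitochondrial estimates stayed negative in both. With LKB1-deficient arrays 1, 4 and 5 left out together, 6 of 7 cytosolic (median -0.09), 7 of 7 chaperonin (-0.33), 4 of 4 mitochondrial (-0.51) and 14 of 18 ER estimates (-0.20) were negative, where 50.2% of all genes were. With the B and plasma cell and macrophage marker means as covariates the counts were 5 (median -0.02), 7 (-0.34), 4 (-0.51) and 15 (-0.23) in the same order of groups, where 50.0% of all genes were negative. Of the 13308 genes above the dimmest 40%, 7210 were negative without those arrays and 7304 with the covariates. Both fits were chosen after seeing the data. Across all genes the calls were 22.0% higher as measured, 14.7% after median subtraction and 39.4% after the second quantile normalization. In these bulk samples fewer cells of a type and less RNA per cell cannot be told apart.

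**Figure D1:**
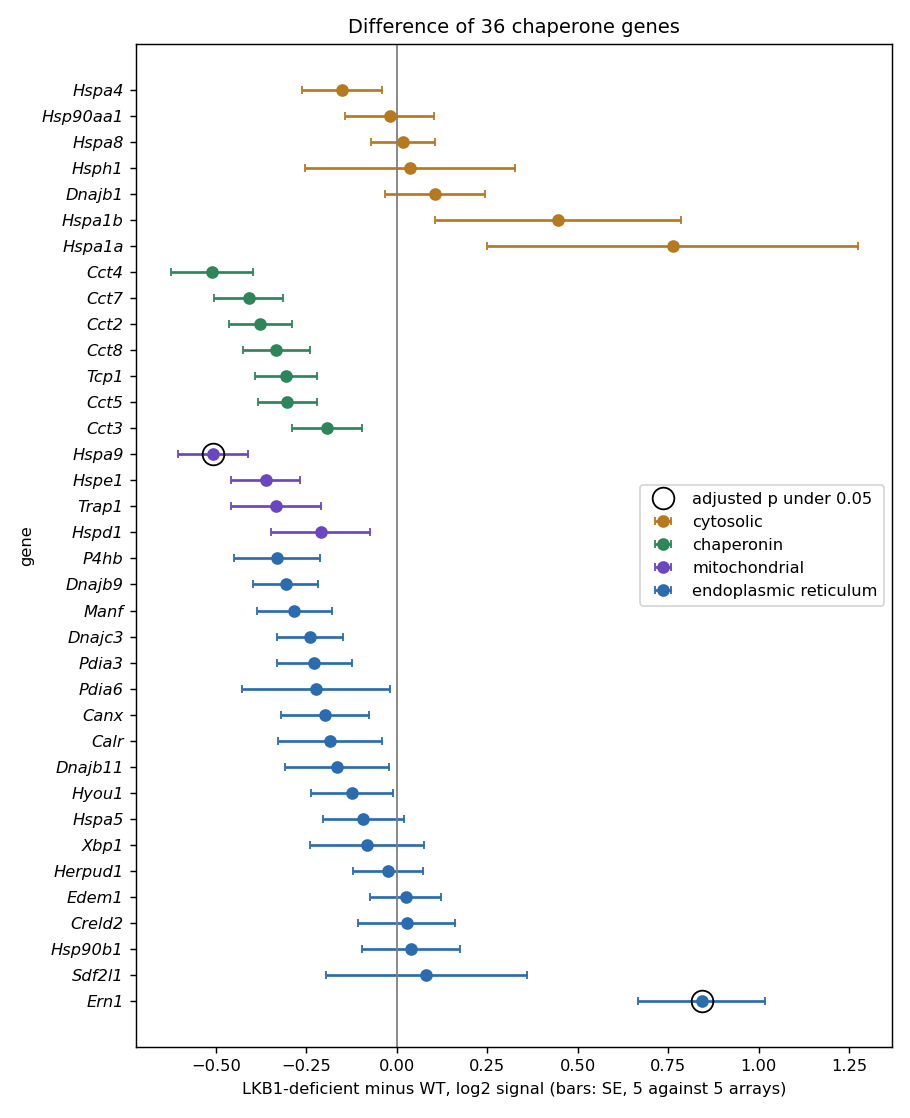
Difference in log2 signal, LKB1-deficient minus WT, for 36 chaperone genes in 4 groups, with the SE of the limma fit as bars (5 against 5 arrays) and rings around the genes past an adjusted p of 0.05. Chaperonin and mitochondrial genes all lie left of 0, and Hspa9 and Ern1 are the ringed ones.

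The 7 chaperonin genes all had lower means in LKB1-deficient cells, by 0.19 to 0.51 on the log2 scale, and none passed the test singly. Of the 7, 0 were called over all genes, 6 had an unadjusted p under 0.05 in the same fit, and the arrays of 6, all except Cct3, did not overlap between genotypes, with all LKB1-deficient values the lower. Of genes above the dimmest 40%, 13.7% were lower at an unadjusted p under 0.05 and 5.99% were without overlap in that direction. Cct4, a subunit of the ring, was at 8.66, 9.19, 8.89, 9.13 and 9.19 on LKB1-deficient arrays 1 to 5, against 9.55, 9.45, 9.66, 9.46 and 9.49 on WT arrays 1 to 5. LKB1-deficient array 1 was the lowest, and the highest of that group remained below the lowest WT array. The difference was -0.51 (SE 0.11, adjusted p = 0.0542), which is 1.43-fold lower.

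Cct7, another subunit, had 8.72, 8.97, 8.73, 8.97 and 9.02 on LKB1-deficient arrays and 9.31, 9.35, 9.41, 9.16 and 9.23 on WT arrays, a difference of -0.41 (SE 0.09, adjusted p = 0.0623). Cct2 had 9.84, 9.90, 10.06, 10.06 and 10.12 on LKB1-deficient arrays and 10.48, 10.37, 10.42, 10.26 and 10.33 on WT arrays, a difference of -0.38 (SE 0.09, adjusted p = 0.0651). In both, WT arrays 4 and 5 were the lowest WT arrays and still lay above every LKB1-deficient array. Cct8 (-0.33, adjusted p = 0.119), Tcp1 (-0.31, 0.123) and Cct5 (-0.30, 0.107), further subunits of the same ring, were likewise apart. Tcp1 had a dimmer second probe set, with a mean of 4.81, at 0.15 (SE 0.34), and averaging both gave -0.08. Cct3 overlapped, because LKB1-deficient array 2, at 7.54, reached the WT range of 7.31 to 7.58, and its difference was -0.19 (95% confidence interval -0.40 to 0.02).

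Cct2, Cct4 and Cct7 were past the threshold in some fits that changed the list of genes, the prior, the weights or the scaling. After a second quantile normalization they did not pass (limma adjusted p of 0.0813, 0.0504 and 0.0949 in that order). Subtracting array medians lowered every estimate alike, that of Cct4 from -0.51 to -0.55. Their adjusted p was 0.0395, 0.0370 and 0.0395 with the dimmest 40% of genes left out, 0.0184, 0.0265 and 0.0297 with a trended robust prior (in which Cct5 passed too, at 0.0313), 0.0432, 0.0437 and 0.0477 with array medians subtracted and 0.0499, 0.0272 and 0.0432 with array weights. Over the 22 alternatives the adjusted p ranged from 0.0184 to 0.589 for Cct2, from 0.0265 to 0.397 for Cct4 and from 0.0297 to 0.60 for Cct7. Among the fits with 1 array left out, Cct4 passed without LKB1-deficient array 1 (-0.42, adjusted p = 0.0389) and not in the other 9. Within the sets the 7 differences were -0.64 to -0.23 in set 1 and -0.31 to -0.13 in set 2, and in set 2 all 7 genes were without overlap (25.8% of all genes were so in that direction with 2 arrays against 2).

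The 4 mitochondrial chaperones had estimates of -0.51 to -0.21. Hspa9, the mitochondrial HSP70 (mortalin), which pulls proteins through the inner membrane, fell. It was at 8.83, 8.86, 8.92, 8.99 and 9.22 on LKB1-deficient arrays 1 to 5, against 9.61, 9.47, 9.51, 9.43 and 9.34 on WT arrays 1 to 5. No LKB1-deficient array reached the lowest WT array, and the difference of -0.51 (SE 0.10, 95% confidence interval -0.72 to -0.30) was 1.42-fold lower (adjusted p = 0.0303). The call held without LKB1-deficient array 1 (adjusted p = 0.0292) or 5 (0.0188) and was lost without LKB1-deficient array 2 (0.0595), 3 (0.0599) or 4 (0.0683), or without WT array 1 (0.0895), 2 (0.0754), 3 (0.0986), 4 (0.0743) or 5 (0.0531), while the difference stayed between -0.57 and -0.47. With LKB1-deficient arrays 1, 4 and 5 left out together it was -0.58 (0.0299), and with the marker means as covariates -0.60 (0.0234). Over all 22 alternatives its adjusted p ranged from 0.0119 to 0.495. In the fit without those 3 arrays 1 member fell, Hspa9, and 1 rose, Ern1, where 0.915% and 0.694% of all genes did, and with the covariates 3 fell, Hspa9, Hspd1 and Hsph1, and 0 rose, where 0.888% and 0.532% did.

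Hspe1, the lid (HSP10) of the mitochondrial folding chamber, was at 10.28, 9.98, 10.15, 10.32 and 10.28 on LKB1-deficient arrays and at 10.60, 10.57, 10.63, 10.66 and 10.38 on WT arrays. The genotypes did not overlap, and the difference was -0.36 (SE 0.09, adjusted p = 0.0963). With a trended robust prior Hspe1 passed (limma adjusted p = 0.0340), the only 1 of its 22 alternatives past the threshold (0.0340 to 0.629). Hspd1, the chamber itself (HSP60), shares with Hspe1 the promoter stretch printed above. Its signals were 9.57, 9.13, 9.36, 9.84 and 9.85 on LKB1-deficient arrays and 9.90, 9.67, 9.83, 9.75 and 9.66 on WT arrays. LKB1-deficient arrays 1 to 3 were below every WT array and arrays 4 and 5 were not, so that the difference was -0.45 in set 1 and 0.14 in set 2 (-0.21 over all arrays, adjusted p = 0.538). With the marker means as covariates it was -0.53 (adjusted p = 0.0349), the only 1 of its 22 alternatives past the threshold (0.0349 to 0.737). Without LKB1-deficient arrays 1, 4 and 5, where those means were highest, it was -0.52 (adjusted p = 0.0636). Trap1, the HSP90 of mitochondria, was at -0.33 (adjusted p = 0.244), with LKB1-deficient array 2, at 8.43, inside the WT range of 8.28 to 8.55.

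**Figure D2:**
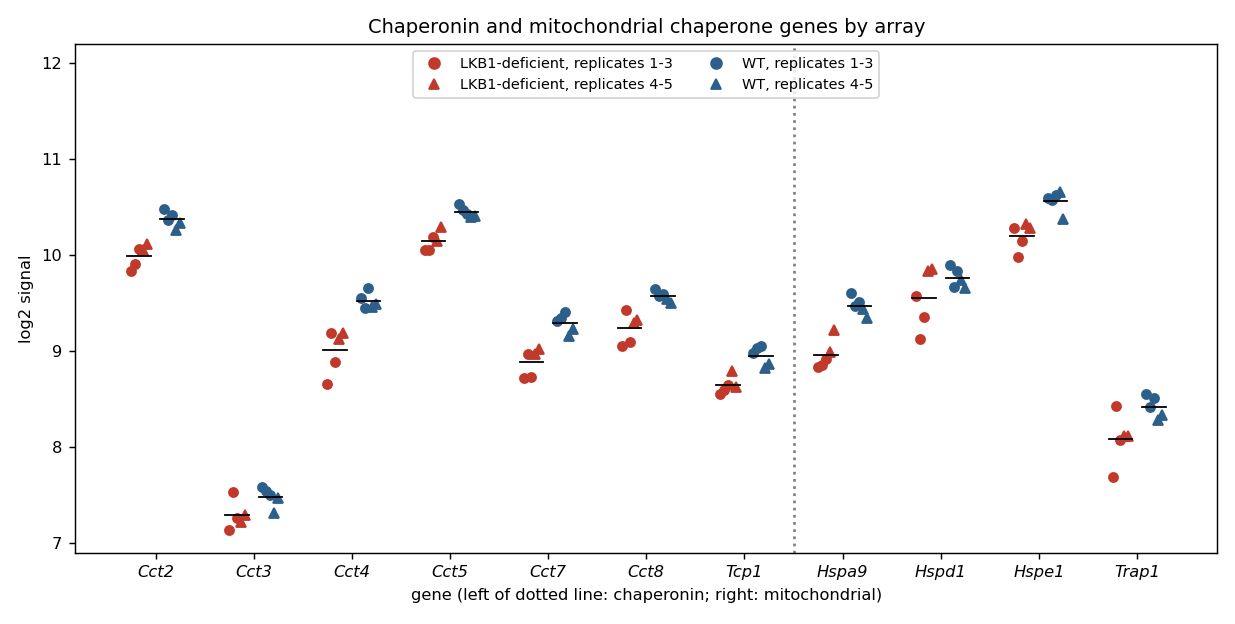
Log2 signal of 7 chaperonin and 4 mitochondrial chaperone genes on every array, LKB1-deficient to the left of WT for each gene, with circles for replicates 1 to 3, triangles for replicates 4 and 5 and a line at each group mean. All genes except Cct3, Hspd1 and Trap1 are without overlap between the genotypes.

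The 18 ER genes were mixed. Ern1 rose, 0 fell, and 5 of the other 17 had a negative difference at an unadjusted p under 0.05. Of all genes 8.8% did, and 13.7% of those above the dimmest 40%. Ern1 encodes IRE1 alpha, the sensor that splices the mRNA of Xbp1 when unfolded proteins gather. It was at 6.84, 7.45, 7.45, 7.82 and 7.56 on LKB1-deficient arrays 1 to 5, against 6.40, 6.36, 6.85, 6.40 and 6.88 on WT arrays 1 to 5. LKB1-deficient arrays 2 to 5 were above every WT array, and array 1 lay among them, just under WT arrays 3 and 5. The difference was 0.84 (SE 0.18, 95% confidence interval 0.46 to 1.22), or 1.79-fold, with an adjusted p of 0.0441.

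The Ern1 call depended on single arrays, while its difference stayed between 0.74 and 0.99 with any 1 of them left out. It held without LKB1-deficient array 1 (0.99, adjusted p = 0.0055), the lowest of its group, whose removal had to enlarge the difference. It ended on removal of LKB1-deficient array 2 (adjusted p = 0.0763), 3 (0.0744), 4 (0.0897) or 5 (0.0823), or of WT array 1 (0.12), 2 (0.11), 3 (0.0826), 4 (0.115) or 5 (0.0594), with differences of 0.74 to 0.92. The difference was 0.71 in set 1 and 1.05 in set 2. With LKB1-deficient arrays 1, 4 and 5 left out together it was 0.87 (adjusted p = 0.0347), and with the marker means as covariates 0.82 (0.0568), in a range of 0.0055 to 0.332 over its 22 alternatives. The promoter stretch of Ern1, chr11:106487797-106487946 (minus strand), the 150 bases before its start site, is shown as that of the ER member that rose. It holds neither CCAAT nor ATTGG. Of the 16 ER members 14 have these letters somewhere in their windows (87.5%, against 41.1% of all genes). The letters are also part of the ER elements. The other ER member without them is Xbp1, which did not pass (-0.08, limma adjusted p = 0.864).
Ern1: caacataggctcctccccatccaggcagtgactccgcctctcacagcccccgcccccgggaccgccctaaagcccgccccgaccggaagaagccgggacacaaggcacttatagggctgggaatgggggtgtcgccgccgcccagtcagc

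Xbp1, the transcription factor whose mRNA IRE1 splices, was at 7.11, 7.83, 7.85, 7.98 and 8.09 on LKB1-deficient arrays and at 7.79, 7.82, 7.88, 7.96 and 7.83 on WT arrays. LKB1-deficient array 1 stood below every WT array and the other 4 lay within or above the WT range, giving -0.08 (adjusted p = 0.864). The signal of a gene gives no splice form. Dnajb9, a J-domain cochaperone of BiP known to restrain IRE1, was without overlap: 8.87, 8.74, 8.80, 8.70 and 8.86 on LKB1-deficient arrays, against 9.16, 9.17, 9.22, 9.09 and 8.88 on WT arrays. LKB1-deficient arrays 1 and 5 came close to WT array 5, and the difference of -0.31 (SE 0.09) did not pass (adjusted p = 0.136). P4hb, a disulfide isomerase, was also without overlap, at 7.77, 8.03, 8.29, 8.35 and 8.30 on LKB1-deficient arrays, against 8.54, 8.57, 8.55, 8.39 and 8.36 on WT arrays (-0.33, SE 0.12, adjusted p = 0.226). LKB1-deficient array 4 lay there only just under WT array 5.

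Hspa5, which encodes BiP, the HSP70 of the ER and a usual readout of the unfolded protein response, was at 9.31, 9.07, 9.08, 9.48 and 9.56 on LKB1-deficient arrays and at 9.38, 9.33, 9.55, 9.41 and 9.31 on WT arrays. The groups overlapped, with LKB1-deficient arrays 2 and 3 lowest, and the interval of the difference was -0.34 to 0.15. Of the other ER folding genes, Hsp90b1 (GRP94, a chaperone of integrins and Toll-like receptors) was at 0.04, the lectin chaperones Canx and Calr at -0.20 and -0.18, and the disulfide isomerases Pdia3 and Pdia6 at -0.23 and -0.22, with adjusted p-values of 0.352 to 0.932. The J-domain proteins Dnajc3 and Dnajb11 were at -0.24 and -0.16, the HSP110-like Hyou1 at -0.12, and Manf and Creld2, secreted proteins that ER stress induces, at -0.28 and 0.03. Herpud1 and Edem1, which act in the removal of misfolded ER proteins, were at -0.02 and 0.02, and the other probe set of Edem1 gave -0.02. None of these passed (adjusted p of 0.231 and above).

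Within its genotype, LKB1-deficient array 1 had the lowest signal for 14 of the 18 ER genes, and it was below all 5 WT arrays for 15 of them. It was below all WT arrays for 7 of 7 chaperonin, 4 of 4 mitochondrial and 3 of 7 cytosolic genes as well. Over all genes it was lowest of its group for 26.1% (35.7% of those above the dimmest 40%) and below all WT arrays for 28.5%. The same array had the lowest Foxp3 and T cell identity sum and a B cell marker mean of 6.61 against 4.95 to 5.28 on WT arrays. Its NK (6.02, WT 5.16 to 5.30), neutrophil (5.39, WT 4.11 to 4.63) and CD8 T marker means (7.18, WT 6.38 to 6.71) were the highest of all arrays. These further lists are not among the covariates. The part of all these in the ER values was not tested. Without it Xbp1 was at 0.08 (adjusted p = 0.714, in a range of 0.701 to 0.977 over its alternatives) and Ern1 remained the 1 ER gene called.

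Of the 7 cytosolic heat shock genes 0 were called in limma and 0 had an unadjusted p under 0.05. Hspa8, the HSC70 of unstressed cells, was at 12.46, 12.70, 12.53, 12.79 and 12.74 on LKB1-deficient arrays, against 12.67, 12.60, 12.69, 12.57 and 12.61 on WT arrays, a difference of 0.02 (95% confidence interval -0.18 to 0.21), and its 4 probe sets gave 0.00 to 0.02. Hsp90aa1, the inducible HSP90, was at -0.02 (-0.29 to 0.25), Hspa4, an exchange factor for HSP70, at -0.15 (-0.39 to 0.09) and Dnajb1, a J-domain partner of HSP70, at 0.10 (-0.20 to 0.40). These intervals bound the differences and do not show that levels were equal.

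The inducible HSP70 genes, Hspa1a and Hspa1b, varied within both genotypes. Hspa1a was at 7.99, 8.04, 5.88, 8.75 and 8.41 on LKB1-deficient arrays 1 to 5, against 7.87, 6.95, 7.98, 6.35 and 6.11 on WT arrays 1 to 5. The spread was wide in both (SD 1.13 and 0.85), LKB1-deficient array 3 was lowest of all and array 4 highest, and the difference of 0.76 had an interval of -0.35 to 1.88 (adjusted p = 0.555). Hspa1b was likewise lowest on array 3 and highest on array 4 within the LKB1-deficient group, at 8.69, 9.41, 7.99, 9.95 and 8.97 on LKB1-deficient arrays, against 9.10, 7.96, 9.19, 8.14 and 8.42 on WT arrays (0.45, adjusted p = 0.611). The 2 genes are near-identical copies, and how far their probes tell them apart is uncertain. Without LKB1-deficient array 3 Hspa1a was at 1.25 (adjusted p = 0.14, in a range of 0.0014 to 0.995 over its alternatives).

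Read within the 2 sets, the cytosolic genes and part of the ER genes had differences of opposite sign. In set 1 all 7 cytosolic differences were negative (median -0.26) and in set 2 all 7 were positive (median 0.36). For ER genes 17 of 18 were negative in set 1 (median -0.29) and 7 of 18 in set 2 (median 0.06). Of all genes 47.0% and 55.5% were negative in sets 1 and 2. Of the 13308 genes above the dimmest 40%, 7591 and 7883 were. The difference between the sets was itself tested by the product of genotype and set in limma, which called 1 of the 36 members, Sdf2l1, and 240 of all genes (1.08%). In set 2 alone limma called 2 members higher, Hspa1a (2.35, adjusted p = 0.0014) and Sdf2l1 (0.95, 0.0413), and 0 lower, where 1.91% and 0.207% of all genes were called. At an unadjusted p under 0.05 the product picked out 10 members, 3 cytosolic, 1 mitochondrial, 6 ER and 0 chaperonin, where 7.96% of all genes were picked.

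Sdf2l1, an ER protein that works with Dnajb11 on BiP clients, was at 6.34, 6.56, 6.91, 7.72 and 7.99 on LKB1-deficient arrays 1 to 5, against 7.34, 6.91, 7.06, 6.99 and 6.81 on WT arrays 1 to 5. LKB1-deficient arrays 1 and 2 lay below the WT range, array 3 within it and arrays 4 and 5 above it. The difference was -0.50 in set 1 and 0.95 in set 2, so that over all arrays only 0.08 remained (adjusted p = 0.932), and set 2 minus set 1 was 1.45 (SE 0.27, adjusted p = 0.0263). Leaving out LKB1-deficient array 2 (adjusted p = 0.0602) or 5 (0.161) ended that call, as did leaving out WT array 1 (0.0754), 3 (0.0722), 4 (0.0854) or 5 (0.159), with values of 1.32 to 1.54; without an array of set 2 the lone array of its group is assumed to vary like the rest. The other alternatives gave adjusted p-values of 0.0121 to 0.0498.

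Sdf2l1 is known as a target of the unfolded protein response; its window held none of the 4 stress elements as spelled here. The 150 bases before its start site (chr16:17132384-17132533, minus strand) are printed, as those of the member that differed between the sets, with CCAAT and ATTGG in capitals.
Sdf2l1: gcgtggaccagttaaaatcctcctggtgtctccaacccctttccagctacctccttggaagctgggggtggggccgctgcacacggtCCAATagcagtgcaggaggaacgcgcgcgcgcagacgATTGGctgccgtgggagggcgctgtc

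Hsph1, the HSP110 that recharges HSP70, had a like pattern of arrays and did not pass in the fit reported. Its values were 6.96, 6.33, 6.46, 8.08 and 7.69 on LKB1-deficient arrays and 7.04, 6.88, 7.39, 7.08 and 6.95 on WT arrays, so that arrays 4 and 5 of LKB1-deficient cells were the 2 highest of all 10. The difference was -0.52 in set 1 and 0.87 in set 2, with 1.39 between the sets (SE 0.30, adjusted p = 0.0654). The product of genotype and set called Hsph1 with array medians subtracted and without LKB1-deficient array 1. Hspa1a (2.64 between the sets, adjusted p = 0.25), Hsp90b1 (0.61, 0.281), Hsp90aa1 (0.60, 0.368) and Canx (0.55, 0.372) had the next smallest p-values and did not pass. Hsp90b1 was at 10.38, 10.57, 10.48, 11.05 and 11.00 on LKB1-deficient arrays, against 10.71, 10.56, 10.77, 10.54 and 10.69 on WT arrays, again highest on LKB1-deficient arrays 4 and 5.

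LKB1-deficient array 4 was above all WT arrays for 7 of 7 cytosolic genes and 6 of 18 ER genes, and array 5 for 3 and 9, where 22.0% and 20.4% of all genes were. These 2 arrays carried the high macrophage marker means given above, and plasma cell marker means of 6.81 and 7.28 against 5.53 to 6.08 on WT arrays; Jchain among them was at 8.31 and 9.10, against 4.51 to 5.78. Other cells express these chaperones as well, and the part of such cells in the set 2 values was not tested beyond the following fits. With LKB1-deficient arrays 1, 4 and 5 left out together, Hsph1 was at -0.67 (adjusted p = 0.0510), Sdf2l1 at -0.29 (0.449) and Hspa1a at -0.09 (0.972). With the marker means as covariates they were at -0.67 (0.0456), -0.36 (0.274) and -0.02 (0.995), in ranges over all 22 alternatives of 0.0456 to 0.997, 0.0413 to 0.983 and 0.0014 to 0.995. Arrays 4 and 5 were the 2 highest of their group for all 3 genes, so leaving them out had to lower the values. The covariates were highest on LKB1-deficient arrays 1, 4 and 5 and so largely set the same arrays apart.

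**Figure D3:**
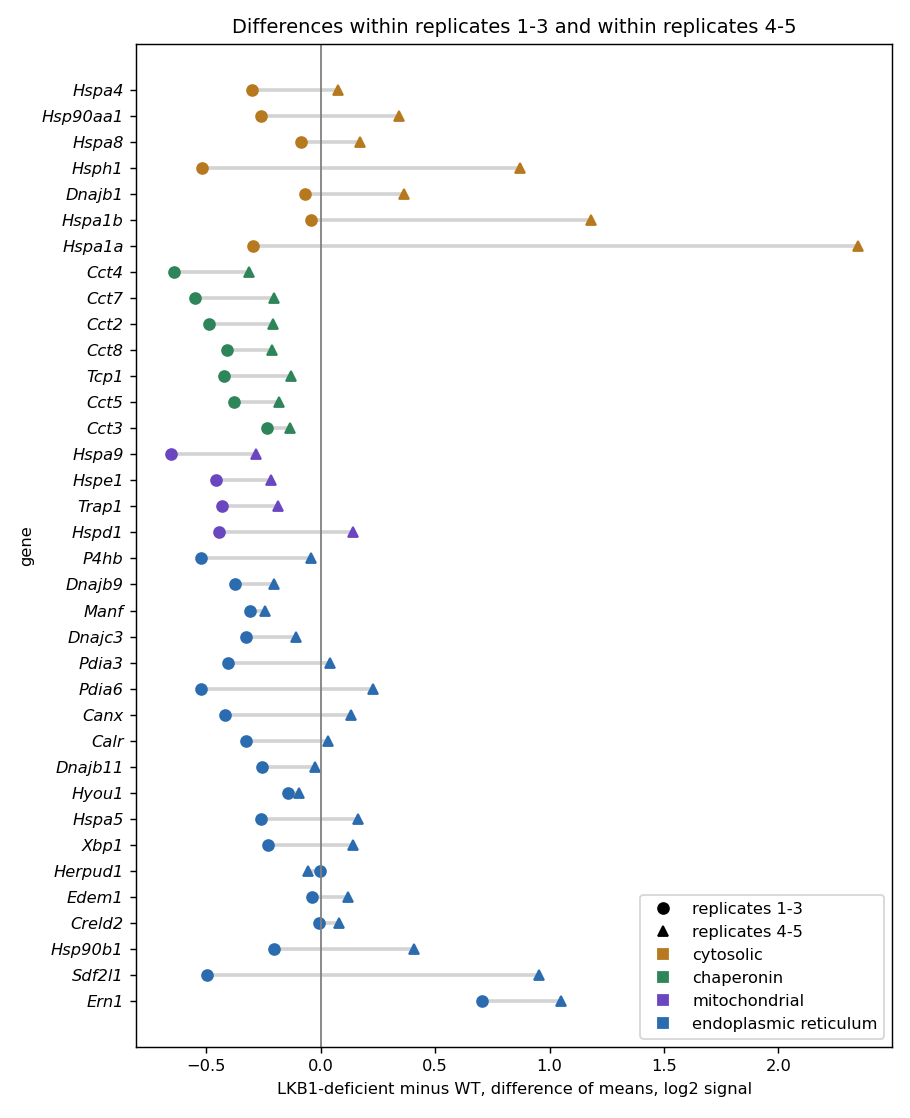
Difference of group means in log2 signal, LKB1-deficient minus WT, within replicates 1 to 3 (circles) and within replicates 4 and 5 (triangles) for each of 36 genes, coloured by group. Cytosolic genes lie left of 0 in the first and right of it in the second, chaperonin genes lie left of 0 in both, and Ern1 lies right of 0 in both.

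**Figure D4:**
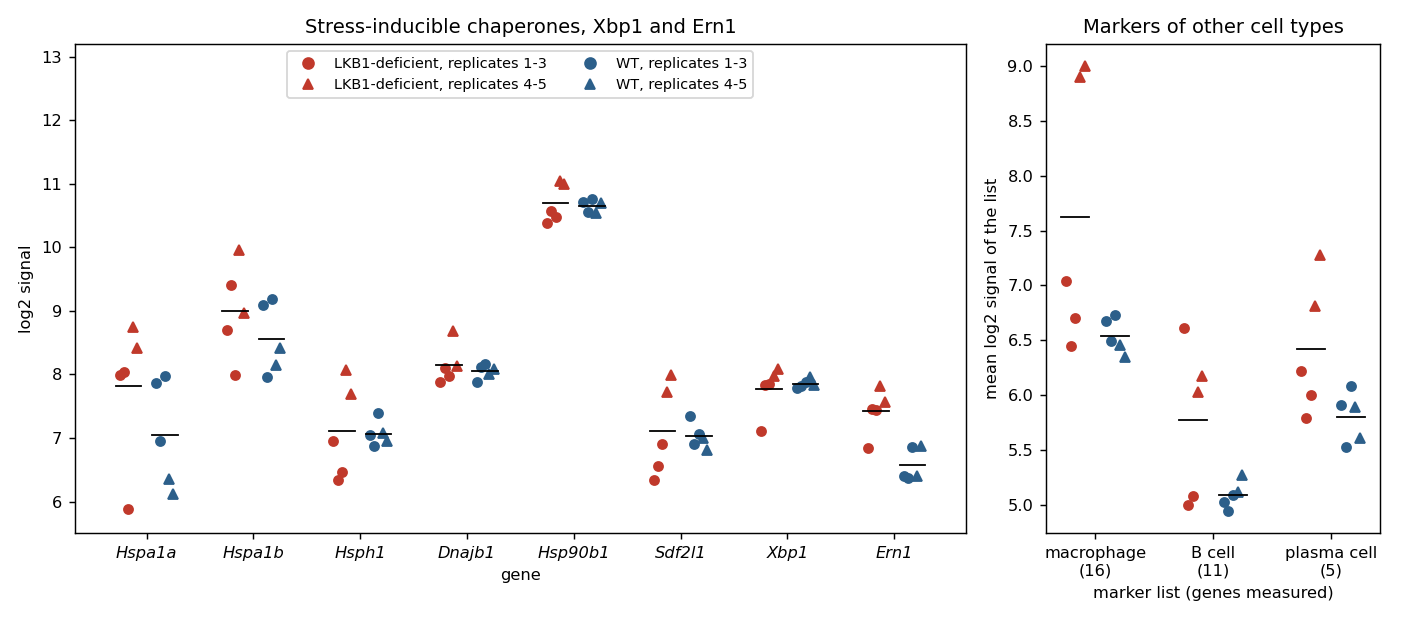
Left, log2 signal of stress-inducible chaperones, Xbp1 and Ern1 on every array, LKB1-deficient to the left of WT, with circles for replicates 1 to 3, triangles for replicates 4 and 5 and lines at group means. Right, mean log2 signal of 3 lists of markers of other cell types, in which the LKB1-deficient triangles are high for all 3 lists and 1 circle, array 1, is high for the B cell list.

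Other genes of the same pathways were read from 6 further lists. Of 105 measured entries 0 rose and 1 fell (0.952%), a share near the 0.83% of all genes that fell. Negative estimates in these lists stand beside the 58.2%, and negative ones at an unadjusted p under 0.05 beside the 13.7%, of genes above the dimmest 40%. Among 13 mitochondrial chaperones and proteases, 12 were negative (median -0.16) and 1 was called, Hscb, a cochaperone of iron-sulphur cluster assembly that works with Hspa9. Hscb was at 7.47, 7.18, 7.13, 7.15 and 7.16 on LKB1-deficient arrays, against 7.91, 7.85, 7.72, 7.78 and 7.50 on WT arrays. The groups did not overlap, with LKB1-deficient array 1 the highest of its group (-0.53, SE 0.10, adjusted p = 0.0349). Over 22 alternatives its adjusted p ranged from 0.0095 to 0.273. The call held without LKB1-deficient array 1 (0.0095) or WT array 5 (0.0351) and ended without each of the other 8 arrays (LKB1-deficient 2, 3, 4 and 5 at 0.0624, 0.0666, 0.0807 and 0.0642; WT 1, 2, 3 and 4 at 0.102, 0.0904, 0.0984 and 0.0875). Dnaja3, a J-domain partner of Hspa9 (-0.37, adjusted p = 0.104), the protease subunit Afg3l2 (-0.32, 0.114) and Grpel1, the exchange factor of Hspa9 (-0.16, 0.506), did not pass.

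Prefoldin is the complex that hands actin and tubulin to the ring. All 9 measured genes of the list of other chaperonin and prefoldin genes were negative (median -0.18) and none passed. Among the 9 are Pdcl, Pdcl3 and Txndc9, which encode subunits of neither complex. The chaperonin subunit Cct6a was at -0.18 (adjusted p = 0.426) and the prefoldin subunits Pfdn2, Pfdn6 and Pfdn5 at -0.22, -0.22 and -0.19 (0.356 to 0.42); 1 gene, Pfdn2, had an unadjusted p under 0.05. Of 35 other cytosolic cochaperones and heat shock genes 21 were negative (median -0.05), 7 with an unadjusted p under 0.05 and none with a positive difference at that level. The smallest p-values belonged to Hspbp1 (-0.34), Bag4 (-0.32) and Bag1 (-0.25), nucleotide exchange factors of HSP70, and to the J-domain protein Dnaja2 (-0.30), with adjusted p of 0.15 to 0.204.

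The remaining lists of the ER lay near 0. Among 22 further folding genes 13 were negative (median -0.06) and none passed, with Selenof (-0.27), the cyclophilin Ppib (-0.24), Sil1 (-0.23), an exchange factor of BiP, and the oxidase Ero1a (-0.17) at adjusted p of 0.202 to 0.377. Among 12 genes for the degradation of misfolded ER proteins 7 were negative (median -0.05) and none passed; Derl2 was at -0.27, Vcp at -0.15, Selenos at -0.12 and Syvn1, the ligase of the pathway, at 0.20. The 14 genes of the ER stress sensors and the ATF4 branch had 11 negative estimates (median -0.07) and no call. Trib3 (0.32), Atf6b (-0.33), Ddit3 (-0.22), which encodes CHOP, and Ddit4 (-0.35) had the smallest p-values there (adjusted p of 0.246 to 0.59). In these 3 lists limma gave 3 negative differences and 1 positive one at an unadjusted p under 0.05.

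The spread between arrays was larger in LKB1-deficient than in WT cells for 33 of the 36 members, where 68.8% of all genes and 76.6% of those above the dimmest 40% had the larger SD there. The median SD of ER genes was 0.25 in LKB1-deficient and 0.09 in WT arrays, and that of chaperonin genes 0.15 in LKB1-deficient and 0.09 in WT arrays; the differences in spread were not tested. For 26 of the 36 members, all 7 chaperonin genes among them, array 1 had the lowest signal of the LKB1-deficient group, where 35.7% of the genes above the dimmest 40% did. That array had the highest median over probe sets (4.94), and every LKB1-deficient array (4.88 to 4.94) was above every WT array (4.83 to 4.86). Its 99th percentile over genes was the lowest (10.57, against 10.71 to 10.76 on WT arrays). LKB1-deficient arrays 2 to 4 were also below every WT array there (10.62 to 10.69), and array 5 was within the WT range (10.74). The part of these shifts in the low signals and negative estimates of bright genes was not tested.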

How the data were processed

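Transcript levels of sorted Treg cells were measured on 10 single-channel arrays, 5 LKB1-deficient and 5 WT, after amplification of a few nanograms of RNA, per the labels' protocols. The deposited log2 values come from RMA (background correction, quantile normalization and probe summary) and Partek 6.6, per the submitters' processing notes; their order and settings are not stated there. Quantile normalization hides a shift shared by all transcripts.

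Of 41345 probe sets, 23521 named 1 gene symbol, 1814 several and 16010 none; the brightest singly named probe set stood for each of 22180 genes. LKB1-deficient arrays were compared with WT arrays in limma 3.58.1 (R 4.3.3; lmFit, eBayes, no covariate), with Benjamini-Hochberg adjustment over all genes and a threshold of 0.05. The product of genotype and set was tested likewise. The code was tested on simulated data. Members and lists were chosen with earlier results of these data known. Named beside the members are Stk11 and the 4 smallest p-values of each further list. Same-numbered samples did not deviate together (r of -0.08 to 0.10 over genes), and no pairing was used. Such correlations cannot exclude a pairing, which the labels do not give. Alternatives changed the probe set rule, filter, scaling, prior, weights and blocks, took each set alone and left out each array. Chosen after seeing the data were the fits without LKB1-deficient arrays 1, 4 and 5 and with marker means as covariates. The number of arrays limits the precision.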

Additional observations from a re-analysis of the deposited data

Results flagged for a closer look

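In groups of 5 arrays, 6 of 74 gene and group pairs had 1 array far from the others by Dixon's criterion, which chance meets in about 1 of 20 groups. LKB1-deficient array 1 was the low one for Xbp1 (7.11, the others 7.83 to 8.09), Dnajb11 (7.92, the others 8.61 to 8.75), Hyou1 (7.15, the others 7.52 to 7.67) and Creld2 (6.66, the others 7.17 to 7.37), 4 ER genes. LKB1-deficient array 3 was low for Hspa1a (5.88, the others 7.99 to 8.75), and WT array 2 for Dnajb11 (8.56, the others 8.71 to 8.75). Sdf2l1 had a genotype difference that differed between the sets, by 1.45 on the log2 scale (adjusted p = 0.0263 in limma), with LKB1-deficient arrays 4 and 5 above the WT range, array 3 within it and arrays 1 and 2 below it.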

How the results depend on the processing

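The counts of 1 member higher and 1 lower were small and moved with the processing. Lower calls were 4 without the dimmest 40% of genes, 4 with array medians subtracted, 6 with a trended robust prior, 4 with array weights and 3 with the marker means as covariates, where 2.13%, 1.28%, 1.38%, 1.48% and 0.888% of all genes tested fell, against 0.83% in the fit reported. With the replicate number as a block 0 members were higher and 0 lower (50 genes in all, against 236; at an unadjusted p under 0.05 limma gave 1 and 13, with 5.07% and 8.18% of all genes). No label says whether the numbers pair the samples, and correlations over all genes cannot exclude it. Of the 5 LKB1-deficient arrays, 2 correlated best with their own number. Under the replicate block limma's adjusted p was 0.122 for Hspa9 and 0.0778 for Ern1. Set 1 alone gave 0 and 0, as it did over all genes (unadjusted 1 and 19, with 3.92% and 6.21% of all genes), and set 2 alone 2 and 0 (unadjusted 6 and 0, with 6.48% and 6.66%); the marker covariates gave 0 higher. Leaving out single arrays, with 38 to 520 calls over all genes, gave 0 to 1 higher, 0 to 2 lower, and 25 to 32 negative estimates against 26. Set 1 alone gave 35 negative and set 2 alone 17, with 47.0% and 55.5% of all genes. Of the 13308 genes above the dimmest 40%, 7591 and 7883 were negative. The product of genotype and set called 2 members with medians subtracted, Sdf2l1 and Hsph1, where 240 of all genes were called. With an array of set 1 left out it called 0 to 2, where 175 to 353 of all genes were called. The fit reported called 1 member and 240 genes. Hsph1 was also called without LKB1-deficient array 1.

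Signs turned in these genes, of which Cct6a, Ppib and Selenos belong to the further lists and the rest are members. With set 1 alone the differences were -0.30 for Hspa1a, -0.045 for Hspa1b, -0.086 for Hspa8, -0.52 for Hsph1, -0.069 for Dnajb1, -0.20 for Hsp90b1, -0.50 for Sdf2l1, -0.039 for Edem1 and -0.0064 for Creld2. With set 2 alone they were 0.074 for Hspa4, 0.34 for Hsp90aa1, 0.14 for Hspd1, 0.16 for Hspa5, 0.038 for Pdia3, 0.23 for Pdia6, 0.032 for Calr, 0.13 for Canx, 0.14 for Xbp1, 0.012 for Cct6a, 0.031 for Ppib and 0.014 for Selenos. With array medians subtracted they were -0.023 for Hspa8, -0.0030 for Hsph1, -0.015 for Edem1 and -0.012 for Creld2. After a second quantile normalization they were 0.051 for Hsp90aa1 and 0.040 for Herpud1. With array weights the value was 0.014 for Xbp1. Without LKB1-deficient arrays 1, 4 and 5 they were -0.094 for Hspa1a, -0.011 for Hspa8, -0.67 for Hsph1, -0.0076 for Dnajb1, -0.13 for Hsp90b1, -0.29 for Sdf2l1 and 0.0014 for Hyou1. With the covariates they were -0.016 for Hspa1a, -0.018 for Hspa8, -0.67 for Hsph1, -0.15 for Hsp90b1 and -0.36 for Sdf2l1. With 1 array left out the ranges were -0.16 to 0.083 for Xbp1, -0.059 to 0.034 for Herpud1, -0.032 to 0.15 for Creld2, -0.096 to 0.052 for Hsp90aa1, -0.019 to 0.062 for Hspa8, -0.21 to 0.23 for Hsph1, -0.027 to 0.17 for Dnajb1, -0.048 to 0.12 for Hsp90b1, -0.14 to 0.27 for Sdf2l1 and -0.028 to 0.096 for Edem1. The cause was not tested.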
